A study of Rattus norvegicus with 6 samples.

Results

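Hepatic expression of secreted complement and coagulation proteins was examined in recipients of faecal microbiota transplantation (FMT). The genes were chosen by name, from a list of 37 complement and clotting proteins that leaves out the serpins. The list was made with earlier results of these data known. Of these names, 35 were found as gene names in the deposited table of 30957 genes, and they gave 36 rows because C2 has 2 rows. C5 and Kng1 were found only under the older symbols Hc and Kng1l1, and their values are given beside those of the 36 rows without being counted among them. All 36 rows passed the filter for low counts, as did 12210 genes in all.

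The livers came from female Sprague Dawley rats, 3 labelled t-PBS and 3 labelled t-DHEA. Both groups first received an antibiotic cocktail in 3 courses to make them pseudo germ-free, and were then gavaged daily with faecal suspension. Donors of the t-DHEA group had been injected with dehydroepiandrosterone (DHEA), an androgen precursor used to induce features of polycystic ovary syndrome in rats, and donors of the t-PBS group with phosphate buffer saline (PBS). The recipients themselves were not injected with DHEA, no group without antibiotics or without transplantation is among these livers, and the donor pellets were pooled, so that the rats of a group shared 1 source of microbiota. The age at sampling is not given in the labels. Total counts on genes ran from 12348511 to 14316886 per liver and overlapped between groups, and a count of 0 allowed up to 3 counts, or 0.21 to 0.248 CPM, the count scaled to a common library size after TMM normalization. CPM values compare livers for 1 gene, and FPKM values compare genes, since they are also divided by gene length.

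Complement is a cascade of plasma proteases and binding proteins that marks microbes and damaged cells. Antibody-bound C1 complexes or mannose-binding lectins with their proteases cleave C4 and C2, the alternative pathway amplifies the cleavage of C3, and C5 to C9 assemble the membrane attack complex. Coagulation is a second protease cascade, which turns prothrombin into thrombin and fibrinogen into fibrin, and plasmin dissolves the clot. Hepatocytes make most of the circulating proteins of both cascades, and several of them rise in the acute phase response under interleukin-6.

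Promoter sequences are shown for the fibrinogen cluster and the C4b-binding protein pair, a choice made after their values were seen, because fibrinogen was even between groups and C4b-binding protein was separated. On Rnor_6.0, the build of the deposited table, Fgg and Fga lie 11727 bases apart on chromosome 2 and Fga and Fgb 13351 bases apart, and C4bpa and C4bpb lie 9469 bases apart on chromosome 13. The sequences are the 250 bases before the RefSeq start on GRCr8, written 5′ to 3′ on the gene's own strand, and their coordinates belong to GRCr8 only. They lie at chr2:170652833-170653082 on the plus strand for Fgg, chr2:170671919-170672168 on the plus strand for Fga, chr2:170700876-170701125 on the minus strand for Fgb, chr13:44663472-44663721 on the minus strand for C4bpa and chr13:44683782-44684031 on the minus strand for C4bpb. Capitals mark the letters GTTAAT, a core of the site of the hepatocyte factor HNF1, and CTGGGA, a core of the interleukin-6 response element, on either strand (ATTAAC and TCCCAG on the other strand). Fga has 2 starts in RefSeq, and the sequence before the first listed is shown.
Fgg: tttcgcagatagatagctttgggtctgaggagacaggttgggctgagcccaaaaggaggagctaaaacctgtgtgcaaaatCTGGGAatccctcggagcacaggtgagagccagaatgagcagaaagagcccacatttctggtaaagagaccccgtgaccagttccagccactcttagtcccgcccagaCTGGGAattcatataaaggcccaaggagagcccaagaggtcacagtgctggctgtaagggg
Fga: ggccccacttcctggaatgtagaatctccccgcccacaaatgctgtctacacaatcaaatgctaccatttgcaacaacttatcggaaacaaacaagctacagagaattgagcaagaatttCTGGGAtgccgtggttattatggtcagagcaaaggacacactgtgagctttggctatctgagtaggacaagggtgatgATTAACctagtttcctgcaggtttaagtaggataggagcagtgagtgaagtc
Fgb: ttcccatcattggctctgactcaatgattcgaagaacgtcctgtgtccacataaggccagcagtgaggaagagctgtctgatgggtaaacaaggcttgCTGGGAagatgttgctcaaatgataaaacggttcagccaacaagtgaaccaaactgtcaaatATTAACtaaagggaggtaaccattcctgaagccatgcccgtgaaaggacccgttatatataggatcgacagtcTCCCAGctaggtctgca
C4bpa: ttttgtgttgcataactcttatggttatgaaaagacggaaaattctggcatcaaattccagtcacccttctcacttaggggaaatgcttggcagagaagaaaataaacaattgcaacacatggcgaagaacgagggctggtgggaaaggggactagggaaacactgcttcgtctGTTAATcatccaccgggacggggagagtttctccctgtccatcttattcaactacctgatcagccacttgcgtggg
C4bpb: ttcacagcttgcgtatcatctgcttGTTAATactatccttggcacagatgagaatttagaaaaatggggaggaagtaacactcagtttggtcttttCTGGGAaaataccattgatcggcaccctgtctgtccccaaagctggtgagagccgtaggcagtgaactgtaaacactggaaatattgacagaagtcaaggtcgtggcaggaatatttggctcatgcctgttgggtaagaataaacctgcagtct
GTTAAT starts at -52 in Fga, -90 in Fgb, -76 in C4bpa and -225 in C4bpb, counted from the start, and is not in the Fgg window. CTGGGA starts at -130 in Fga, at -152 and -17 in Fgb, at -169 and -61 in Fgg and at -154 in C4bpb. Of the 37 names, 30 had a promoter in the RefSeq table. GTTAAT was in 10 of these 30 (33.3%) against 7.13% of the 27457 genes with a promoter, TTGCNNAA, a C/EBP site, in 12 (40%) against 9.99%, and CTGGGA in 14 (46.7%) against 27.4%. CAAAGTCCA, an HNF4 site, was in 1, that of Proz, and TATAAA in 1, that of Fgg, which are 3.33% each against 0.393% and 14.1% of genes. These matches describe letters within 250 bases, on both strands, and were not tested against the expression values.

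Levels differed far more between genes than between livers. Fgg and C3 were the most abundant, with mean FPKM values over the 6 livers of 2542 and 2298, followed by Fga at 1793, Fgb at 1555, F2 (prothrombin) at 1177 and Plg (plasminogen, the precursor of plasmin) at 996. At the low end were Masp1 at 32.5, Cfd at 11, the row named Cfb at 2.32 and Mbl2 at 1.31. Neighbours in this order were not always separated: Fgg ran from 2324 to 2771 FPKM over the livers and C3 from 1869 to 2868, so the ranges of these genes overlapped, whereas F2, from 1077 to 1241, lay above Plg, from 919.7 to 1072. The 38 rows took between 4.76% and 5.54% of all counts of a liver. With livers in the order of rats 1, 2 and 3 here and in all that follows, complement alone took 2.56%, 2.12% and 2.08% in t-PBS livers against 2.25%, 2.77% and 2.46% in t-DHEA livers. Coagulation took 2.98%, 2.73% and 2.68% against 2.74%, 2.74% and 2.85%. The groups overlapped in both shares.

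**Figure D1:**
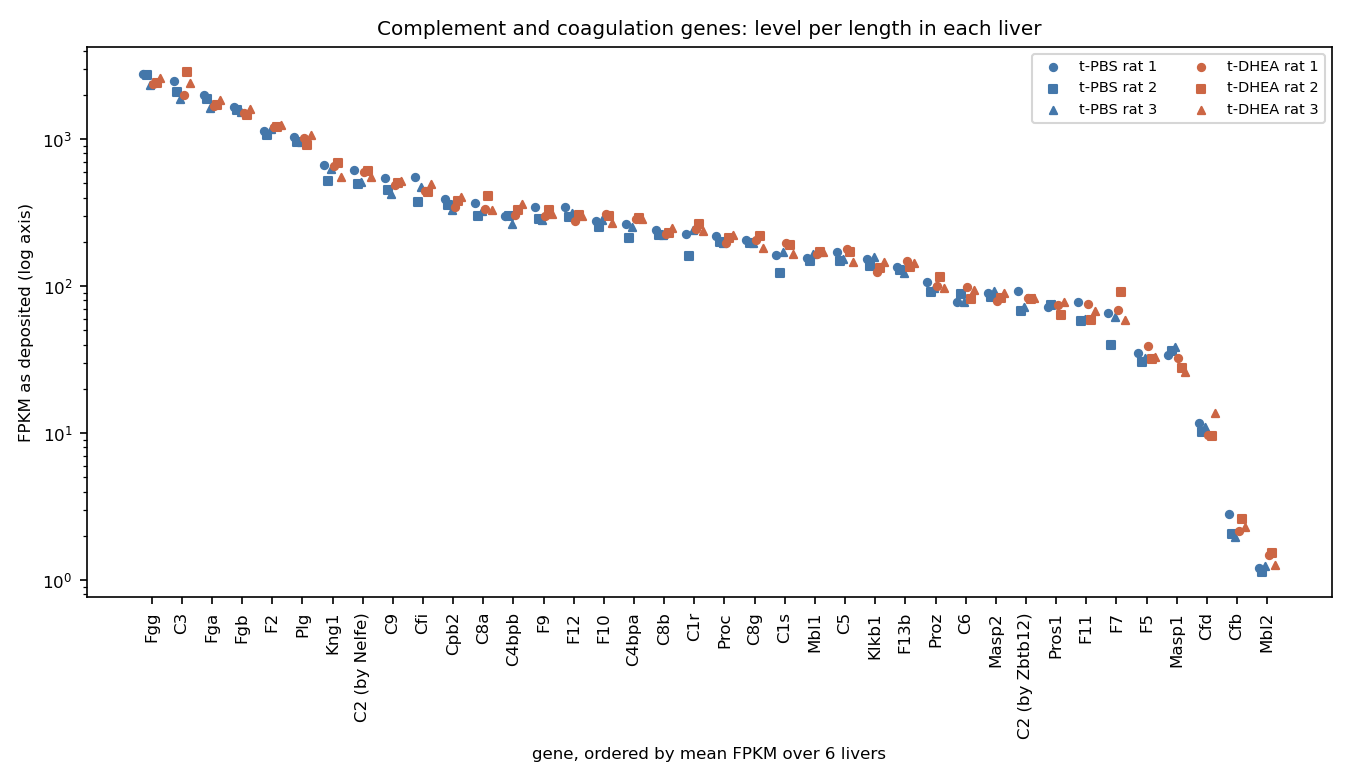
FPKM as deposited (vertical log axis) of the 38 rows in each of 6 livers, ordered by their mean; blue points are t-PBS and orange points t-DHEA livers, and the marker shape gives the rat number. Fgg and C3 stand at the top with means of 2542 and 2298 and Mbl2 at the bottom with 1.31, and the livers of a gene lie close together on this scale.

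The row names at the C2 and Cfb locus have to be read with care. On chromosome 20 of Rnor_6.0 a C2 row lies at 4536203 to 4542947 next to Nelfe, another C2 row at 4542340 to 4561152 towards Zbtb12, and the Cfb row at 4536263 to 4561062 spans nearly all of both. In the RefSeq gene table of GRCr8 the order is Zbtb12, C2, Cfb and Nelfe, so that the C2 row next to Nelfe stands where RefSeq has Cfb (factor B, the protease of the alternative pathway C3 convertase). That row held between 90.2% and 91.1% of the counts of the 3 rows in each liver, and the Cfb row between 0.305% and 0.382%, or 90 to 141 counts. Which of the genes the counts came from cannot be told apart here. The summed expression of the 3 rows was 2591, 1961 and 2123 CPM in t-PBS livers against 2514, 2534 and 2323 CPM in t-DHEA livers. The summed log2 fold change of t-DHEA against t-PBS was 0.14 (SE 0.13, 95% interval -0.16 to 0.45, unadjusted p = 0.312), and the groups overlapped because t-PBS rat 1 was the highest liver. Cfd also lies inside Hmha1 and C8g shares 363 bases with Fbxw5, and the strandedness of the counting is not given in the sources used here, so these rows are uncertain too.

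Differences between t-DHEA and t-PBS livers were small and mostly of 1 sign. Of the 36 rows, 28 were higher in t-DHEA livers by any amount, where 50.4% of all genes tested were (27 rows against 40.6% of genes with library size alone, and 26 against 40.6% with limma on FPKM), and their log2 fold changes had a median of 0.11, against 0.00132 over all genes. Individual log2 fold changes ran from -0.29 for Masp1 to 0.43 for F7. The thresholds taken from the study's methods were an unadjusted p of 0.05 and a fold-change of 1.2. With both, 1 row was higher (C4bpa) and 1 was lower (Masp1). Over all genes 4.95% passed these thresholds, 1.97% as higher and 2.98% as lower, so that 2 of 36 rows is close to the background. After adjustment over all genes by Benjamini-Hochberg in edgeR's quasi-likelihood test, 0 rows (and 0% of all genes) were below 0.05. Before adjustment 2 rows were, against 634 of the 12210 genes tested. With both thresholds DESeq2 called 3 of the 36 rows higher (8.33%, against 1.43% of all genes) and 1 lower (against 240 genes). The likelihood-ratio test of edgeR called 0 rows higher and 1 lower, against 231 and 377 genes. Neither gave a row with an adjusted p below 0.05, against 24 and 28 genes in all.

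The 3 livers of a group all lay on the same side of those of the other group for 8 of the 36 rows (22.2%), against 10.1% of all genes tested. In 7 of them every t-DHEA liver was higher, which was so for 4.66% of all genes, and in 1 every t-DHEA liver was lower, as for 5.42% of all genes. The 7 were C1r, Mbl1, Mbl2, C4bpa, C4bpb, F2 and F13b, and the 1 was Masp1. These counts are on the CPM scale. With library size alone, and on the deposited FPKM values, 6 rows were separated. On FPKM, C1r overlapped, with 240.3 in t-PBS rat 3 against 239.3 in t-DHEA rat 3. F13b did too, with 136.1 in t-PBS rat 1 against 135 in t-DHEA rat 2. The share of all genes was not counted for these scalings. An exact permutation test of a single gene in 3 against 3 livers cannot go below p = 0.1. The rows share the same livers, so their counts are not counts of independent observations.

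The intervals bound what these livers could hide. The 95% interval of the log2 fold change lay within a 1.5-fold change in either direction for 31 of 36 rows (86.1%), against 62.4% of all genes tested, and within a 2-fold change for 36 of 36, against 85.3%. The 5 wider than 1.5-fold were those of C1r, C1s, Mbl2, C3 and F7. All genes tested were not matched to these rows in expression level. The median SE was 0.118 for the rows and 0.154 for all genes tested. The coefficient of variation within groups was 8.88% at the median and ran from 4.82% for F2 to 26.5% for F7.

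**Figure D2:**
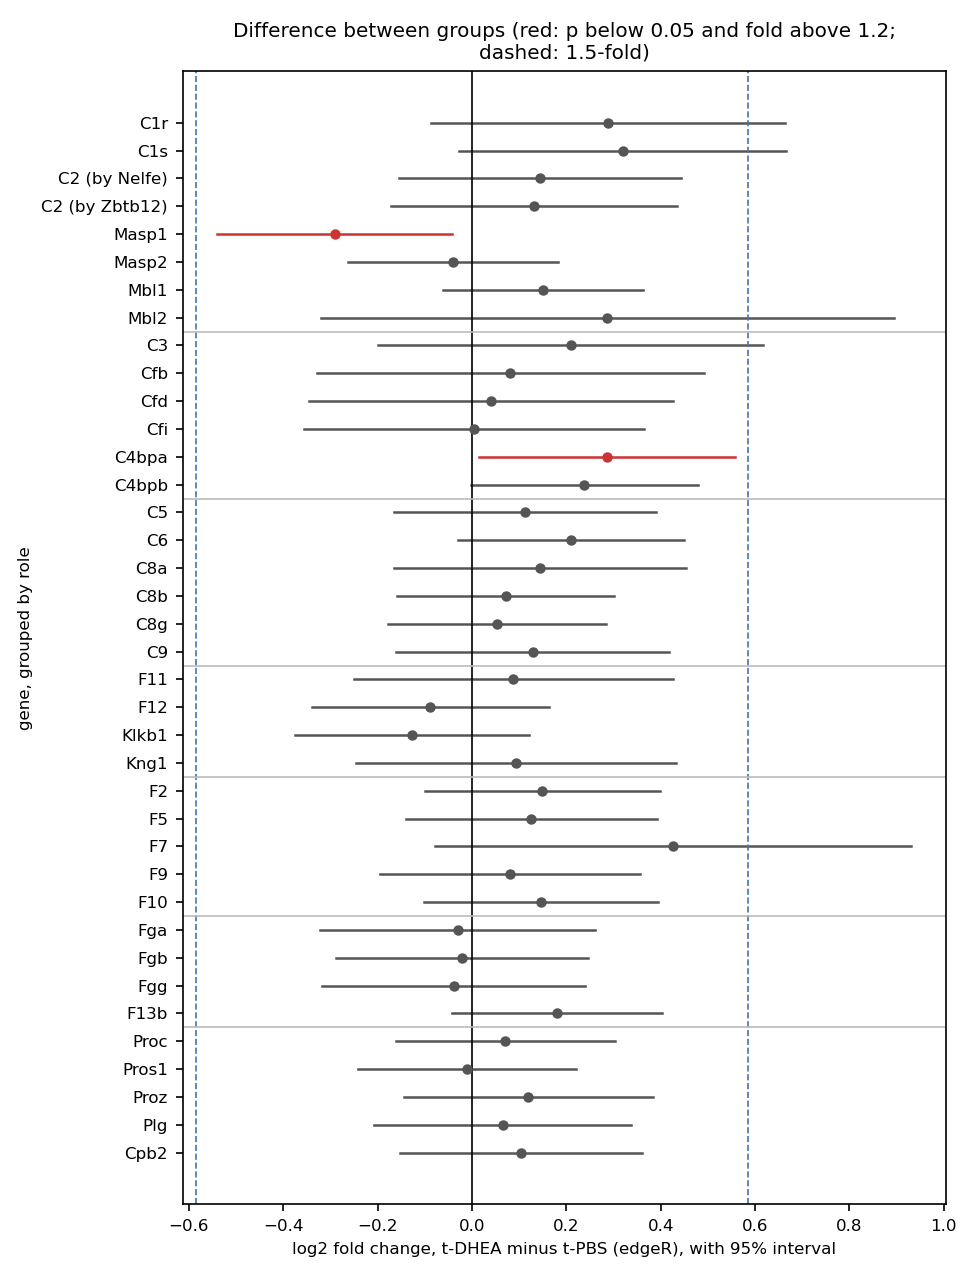
Log2 fold change of t-DHEA minus t-PBS (horizontal axis, edgeR) with its 95% interval for each row, grouped by role; dashed lines mark a 1.5-fold change and red marks the rows with p below 0.05 and a fold-change above 1.2. Most points lie to the right of 0, C4bpa and Masp1 are the red rows, and the interval of F7 reaches furthest past the dashed line.

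The size of the differences depended on single t-PBS livers. Rat 2 of the t-PBS group was the lowest of the 6 livers for 20 of the 36 rows and the highest for 0, and its median deviation from the mean of a row was -0.17 on the log2 scale. The normalization factor of t-PBS rat 2 was the highest of the livers, 1.042, which lowers its CPM values. The part of this factor in the order of the livers was not tested. Rat 1 of the t-PBS group was the highest liver for 11 rows and the lowest for 0, with a median deviation of 0.08. By median deviation the t-PBS livers therefore held both ends. Rat 3 of the t-PBS group was the highest for 3 rows and the lowest for 9, with a median deviation of -0.06. By rows, t-DHEA rats 1, 2 and 3 were the highest liver for 5, 8 and 9 and the lowest for 2, 3 and 2. The t-DHEA livers were closer to each other, with median deviations of 0.04, 0.06 and 0.07. The standard deviation of log2 CPM was larger in the t-PBS group for 26 of 36 rows (72.2%), against 46.4% of all genes tested. Without t-PBS rat 2 the median log2 fold change of the rows was 0.04 and 25 of 36 were higher, and without t-PBS rat 1 it was 0.19 and 31 were higher. With t-PBS rat 3 left out it was 0.06. With 1 liver left out, separation is easier to reach: without t-PBS rat 1 the groups were separated for 21 rows (58.3%), against 19.6% of all genes tested, and without t-PBS rat 2 for 11 rows (30.6%), against 18.8%.

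**Figure D3:**
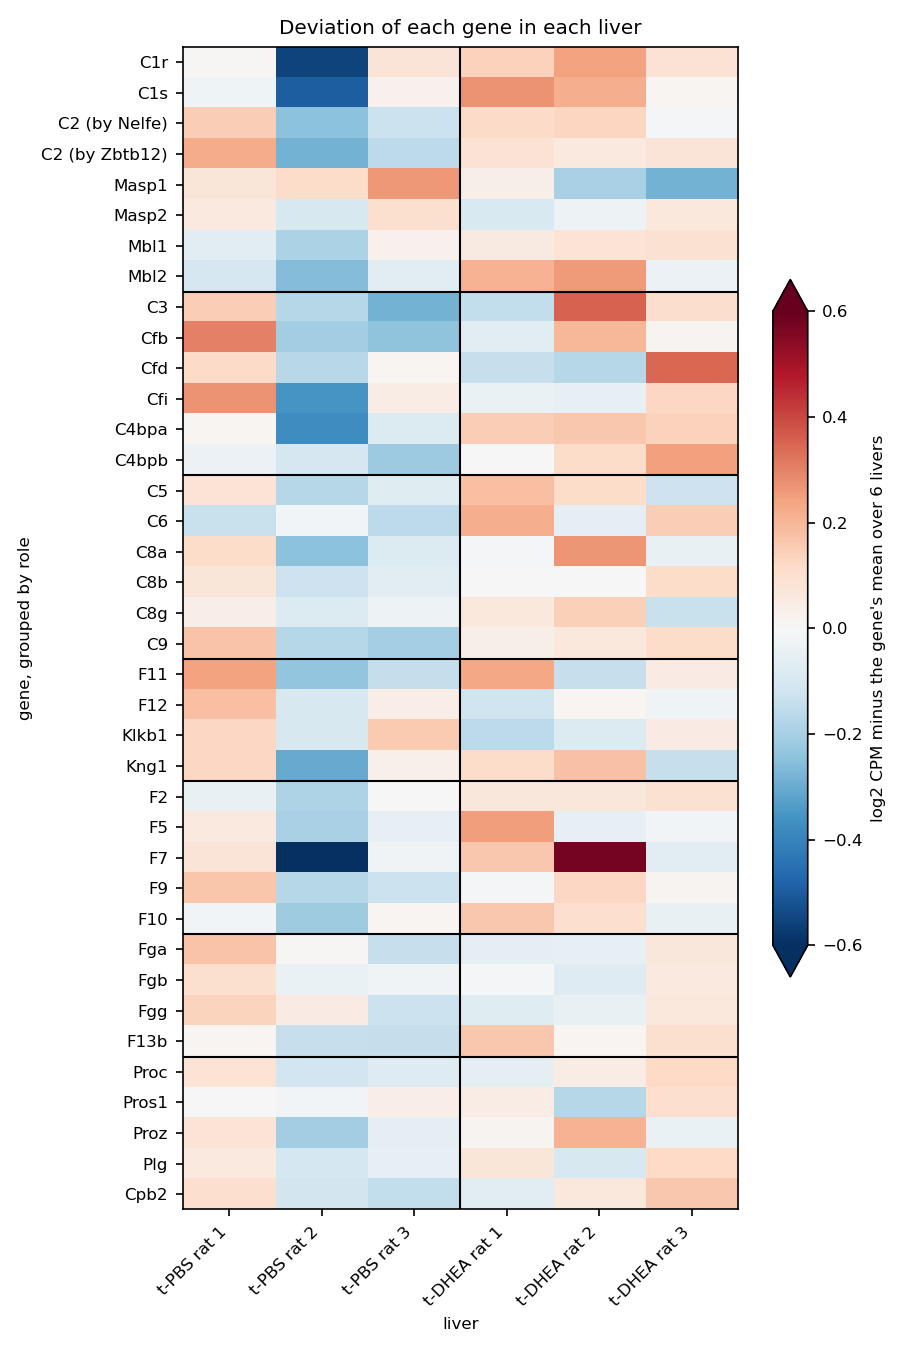
Log2 CPM of each row in each liver minus the row's mean over the 6 livers (colour scale, blue lower and red higher), with rows grouped by role and t-PBS livers left of the vertical line. The column of t-PBS rat 2 is mostly blue, where it was the lowest liver for 20 of 36 rows. That of t-PBS rat 1 is mostly red, where it was the highest liver for 11 rows, the fibrinogen rows among them.

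**Figure D4:**
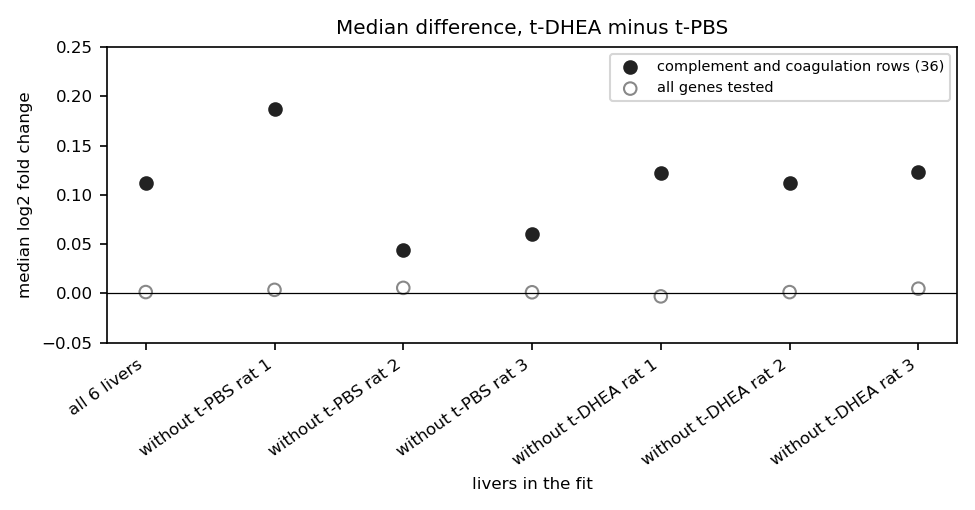
Median log2 fold change (vertical axis) of the 36 rows (filled) and of all genes tested (open) with all 6 livers and with each liver left out in turn. The filled points stay above 0, at 0.04 when t-PBS rat 2 is left out and at 0.19 when t-PBS rat 1 is, while the open points stay near 0.

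Among the proteins that start complement, 6 of 8 rows were higher and 2 lower, and the median log2 fold change was 0.15. The groups were separated for 4 of the rows (10.1% of all genes were), each by a small margin. The C2 rows are counted among the 8 as named, with the limit on that locus given above. C1r and C1s are the proteases of the C1 complex and lie 6762 bases apart on chromosome 4. C1r was at 895.6, 604.8 and 939.4 CPM in t-PBS livers and at 981.2, 1053 and 945.8 CPM in t-DHEA livers. C1s was at 703.3, 507.8 and 728.6 CPM against 863.9, 834.5 and 721.6 CPM. In both genes t-PBS rat 2 was far below the other livers, and the groups were separated narrowly in C1r and overlapped in C1s. The log2 fold changes were 0.29 (SE 0.17, unadjusted p = 0.115) and 0.32 (SE 0.15, unadjusted p = 0.0668), and without t-PBS rat 2 they were 0.118 and 0.175. The ratio of C1r to C1s in FPKM stayed between 1.25 and 1.44.

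Masp1, a protease that circulates with mannose-binding lectins, was the member with the largest decrease. It was at 105.8, 108.5 and 120.2 CPM in the t-PBS livers, or 111.5 ± 7.67 (SD, n = 3), and at 103.1, 87.9 and 82.5 CPM in the t-DHEA livers, or 91.2 ± 10.7 (SD, n = 3). Every t-DHEA liver was below every t-PBS liver, but t-DHEA rat 1 only just. The log2 fold change was -0.29 (SE 0.11, 95% interval -0.54 to -0.04, unadjusted p = 0.027, adjusted p = 0.945 in edgeR). Leaving out any of t-PBS rat 3, t-DHEA rat 2 and t-DHEA rat 3 ended the call, and over the 6 fits that left out 1 liver it ran from -0.39 to -0.22.

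Masp2, the related protease that cleaves C4 and C2, was at 243.4, 218.6 and 249.6 CPM in t-PBS and 219.3, 228.4 and 244.2 CPM in t-DHEA livers, with a log2 fold change of -0.04 (SE 0.10). The ratio of Masp2 to Masp1 in FPKM was 2.66, 2.33 and 2.4 in t-PBS and 2.46, 3 and 3.42 in t-DHEA livers, so the groups overlapped. Mbl1, a mannose-binding lectin, was at 186, 170.1 and 197.5 CPM against 201.7, 205.7 and 207 CPM, separated by a small margin, with a log2 fold change of 0.15 (SE 0.09). The other lectin, Mbl2, was near the lower end of what was measured, with 17 to 20 counts in t-PBS and 19 to 24 counts in t-DHEA livers. Its groups were separated on the CPM scale but overlapped in counts, and its interval ran from -0.32 to 0.89.

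For C3 and the regulators in plasma, 6 of 6 rows were higher, although Cfi turned below 0 with library size alone and Cfi and Cfd did with limma on FPKM, and the median log2 fold change was 0.14. The row named Cfb is counted among the 6, with the limit on that locus given above. C3, on whose cleavage all routes converge, was at 14200, 11400 and 10540 CPM in t-PBS livers and 11570, 16380 and 13830 CPM in t-DHEA livers. Its groups overlapped, since t-DHEA rat 1 lay below t-PBS rat 1. The log2 fold change was 0.21 (SE 0.18, 95% interval -0.20 to 0.62). Cfi (factor I, which inactivates C3b and C4b) was at 1166, 755.6 and 995.7 CPM against 940.6, 933 and 1054 CPM, with both the highest and the lowest liver in the t-PBS group. Its log2 fold change was 0.01 (SE 0.16) and turned to -0.03 when libraries were scaled by size alone.

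C4bpa and C4bpb encode the chains of C4b-binding protein, a cofactor of factor I whose beta chain carries protein S. C4bpa was at 653.7, 501.5 and 613 CPM in the t-PBS livers and at 718.9, 724.8 and 713.3 CPM in the t-DHEA livers. The t-DHEA livers were nearly equal and above all t-PBS livers, with means of 719 ± 5.75 and 589.4 ± 78.8 CPM (SD, n = 3). The log2 fold change was 0.29 (SE 0.12, 95% interval 0.02 to 0.56, unadjusted p = 0.0403, adjusted p = 0.957 in edgeR), or 1.22-fold. The call was kept in 1 of the 6 fits that left out 1 liver, the one without t-PBS rat 1, while the log2 fold change ran from 0.186 to 0.368 over them. The call was also lost with library size alone (log2 fold change 0.251) and limma on log2(FPKM + 0.1) (0.258) or log2(FPKM + 1) (0.257), all under the fold threshold. With the likelihood-ratio test (0.287) and the replicate block (0.296) it was lost above that threshold. C4bpb was at 336.1, 321.7 and 296.7 CPM against 344.4, 372 and 409.7 CPM, also separated, with a log2 fold change of 0.24 (SE 0.11, unadjusted p = 0.0515). The order of the livers within groups differed between these neighbouring genes, and C4bpa over C4bpb in FPKM ran from 0.709 in t-PBS rat 2 to 0.949 in t-DHEA rat 1.

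Cfd (factor D, which cleaves factor B) was low, at 11.2, 9.22 and 10.4 CPM in t-PBS and 9.41, 9.2 and 13.1 CPM in t-DHEA livers. Its log2 fold change of 0.04 rested on t-DHEA rat 3 and was -0.14 without it. Adipose tissue is the known main source of factor D, and the adipocyte genes Adipoq, Plin1, Retn and Lep had 0 counts in all 6 livers. Cidec, the remaining gene of the adipocyte list, was measured in every liver. It ran from 48.2 to 54.6 CPM in t-PBS and from 55.3 to 59.4 CPM in t-DHEA livers. A 0 throughout also stands for Col1a2, a collagen of the stellate cell list, so it need not mean absence.

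The terminal components were higher in 5 of 5 rows, the median log2 fold change was 0.13, and the groups were separated in none. C6 had the largest difference, from 236.4, 256 and 232.3 CPM to 301.3, 249.2 and 287.6 CPM, with a log2 fold change of 0.21 (SE 0.11, unadjusted p = 0.0792). Its groups overlapped because t-DHEA rat 2 was below t-PBS rat 2. C9, which forms the ring of the pore, was at 1322, 1041 and 1018 CPM against 1203, 1225 and 1268 CPM, with a log2 fold change of 0.13 (SE 0.13). The chains of C8 had log2 fold changes of 0.14 (C8a), 0.07 (C8b) and 0.05 (C8g). C8a over C8b in FPKM ran from 1.34 to 1.79, the extremes being t-DHEA rats 3 and 2. C5, found as Hc, had a log2 fold change of 0.11 (SE 0.12), with 861.5, 722.8 and 773.7 CPM against 923.2, 878.4 and 747.2 CPM.

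**Figure D5:**
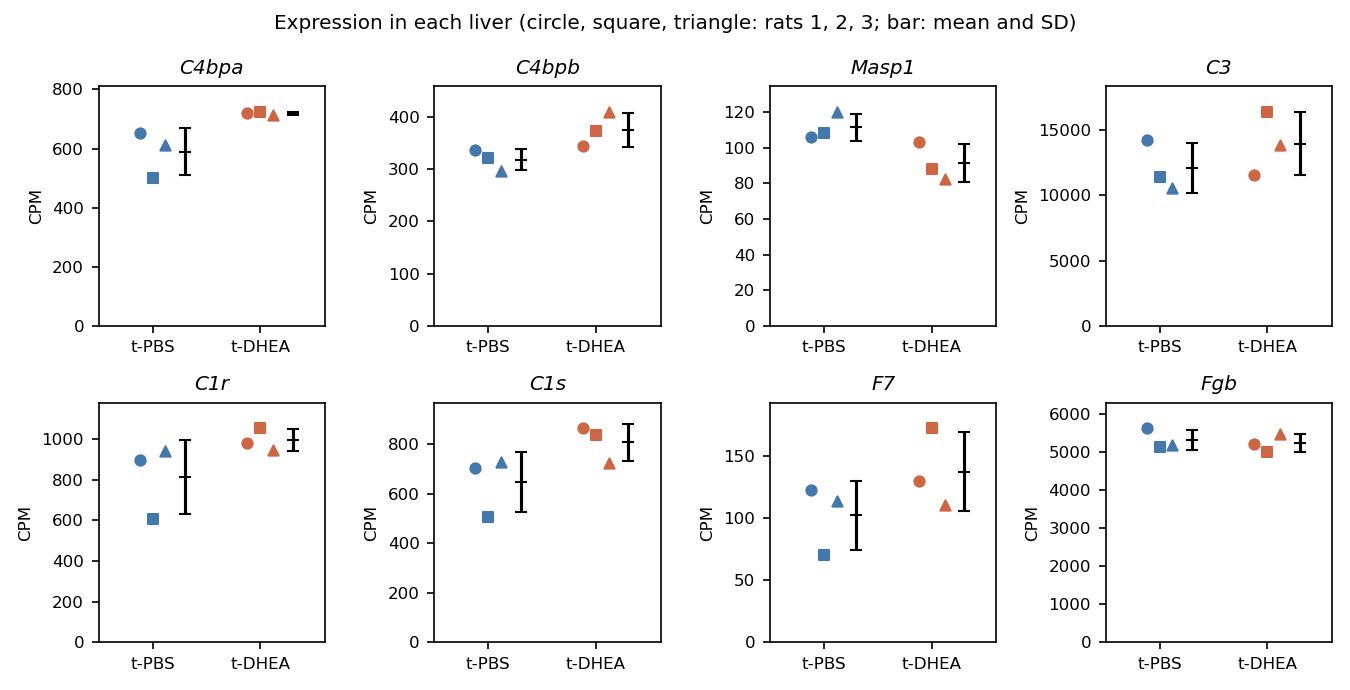
CPM (vertical axes from 0) of 8 genes in each liver, with circles, squares and triangles for rats 1, 2 and 3 and black bars for the mean and SD of each group. The t-DHEA livers of C4bpa lie together at 713.3 to 724.8, above all t-PBS livers, those of Masp1 lie below, t-PBS rat 2 is the lowest point of C1r, C1s and F7, and the groups of Fgb overlap.

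In the contact system, 1 of 3 rows was higher and 2 were lower, with a median log2 fold change of -0.09. F12, which starts contact activation, was at 942.5, 778.5 and 854.1 CPM in t-PBS and 765.5, 836.8 and 820.2 CPM in t-DHEA livers, with a log2 fold change of -0.09 (SE 0.11). Klkb1, prekallikrein, was at 400.9, 344.5 and 410.4 CPM against 330.2, 347.9 and 380.2 CPM, with a log2 fold change of -0.13 (SE 0.11). F11, 3999 bases from Klkb1 on chromosome 16, differed by 0.09 (SE 0.15). These groups overlapped throughout. Kng1, the kininogen from which bradykinin is released, was found as Kng1l1 at 2991, 2227 and 2797 CPM against 2958, 3101 and 2489 CPM, with a log2 fold change of 0.09 (SE 0.15). Rats have several similar kininogen genes, and how fragments were split among them is not given.

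The vitamin K-dependent zymogens and factor V were higher in 5 of 5 rows, with a median log2 fold change of 0.15. F7, which forms the initiating complex with tissue factor, was at 122.6, 70.7 and 114.4 CPM in t-PBS livers and 129.9, 172.8 and 110.7 CPM in t-DHEA livers. This gene had the largest log2 fold change of the rows and the largest spread, and its groups overlapped. The value was 0.43 (SE 0.22, 95% interval -0.08 to 0.93, unadjusted p = 0.0881), and it was 0.221 with t-PBS rat 2 left out and 0.575 with t-PBS rat 1 left out. F7 and C1s passed the thresholds with DESeq2 and in 2 of the 6 fits that left out 1 liver each. F10, which lies 1394 bases from F7 on chromosome 16, did not share that spread, with 519.4, 453.7 and 530.1 CPM against 588.7, 564.6 and 510.2 CPM, and F10 over F7 in FPKM ran from 3.25 in t-DHEA rat 2 to 6.39 in t-PBS rat 2.

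F2 was at 2352, 2134 and 2429 CPM in t-PBS and 2540, 2545 and 2584 CPM in t-DHEA livers. The groups were separated, with 2305 ± 153 against 2556 ± 23.9 CPM (SD, n = 3), but the difference of 0.15 on the log2 scale (SE 0.11) did not pass (unadjusted p = 0.207 in edgeR). F5, the cofactor of factor Xa, and F9, the gene affected in haemophilia B, had log2 fold changes of 0.13 (SE 0.12) and 0.08 (SE 0.12).

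Fibrinogen was the most even group. Fga was at 5488, 4896 and 4438 CPM in t-PBS and 4688, 4710 and 5120 CPM in t-DHEA livers. Fgb was at 5632, 5134 and 5191 CPM against 5224, 5006 and 5485 CPM. Fgg was at 4293, 4061 and 3585 CPM against 3728, 3797 and 4096 CPM. In all 3 genes t-PBS rat 1 was the highest liver and the t-DHEA livers lay inside the range of the t-PBS livers, apart from Fgb in t-DHEA rat 2, which was below it. The log2 fold changes were -0.03 (SE 0.13), -0.02 (SE 0.12) and -0.04 (SE 0.12), with 95% intervals that lay between -0.32 and 0.26, and each was above 0 without t-PBS rat 1. The chains kept similar ratios in FPKM, with Fgg over Fga between 1.38 and 1.46, Fga over Fgb between 1.06 and 1.21 and Fgg over Fgb between 1.52 and 1.74. F13b, the carrier subunit of the fibrin-stabilising factor XIII, was separated, at 383.4, 346.1 and 344.6 CPM against 426.2, 383.7 and 407.4 CPM, with a log2 fold change of 0.18 (SE 0.10, unadjusted p = 0.101). The nearest livers of the groups, t-PBS rat 1 and t-DHEA rat 2, almost touched.

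Among the protein C pathway and fibrinolysis, 4 of 5 rows were higher, the groups were separated in none, and the median log2 fold change was 0.07. Proc, the zymogen of the anticoagulant protein C, differed by 0.07 (SE 0.10), and Pros1, its cofactor protein S, by -0.01 (SE 0.10). Proz, protein Z, a cofactor in the inhibition of factor Xa, differed by 0.12 (SE 0.12). Plg was at 3667, 3272 and 3395 CPM in t-PBS and 3696, 3290 and 3828 CPM in t-DHEA livers and differed by 0.07 (SE 0.12). Cpb2, which encodes the fibrinolysis inhibitor TAFI, differed by 0.10 (SE 0.11).

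Other genes of the same pathways were read from lists chosen by function. Of 19 further complement genes tested, 11 were higher and 8 lower, their median log2 fold change was 0.03, and 1 passed the thresholds. That was C7, the pore component that follows C6, at 6.73, 14.4 and 4.98 CPM in t-PBS and 5.12, 4.86 and 3.71 CPM in t-DHEA livers, with a log2 fold change of -0.93 (unadjusted p = 0.0327). Its groups overlapped, and t-PBS rat 2 was far above the other livers. Of 13 further coagulation and fibrinolysis genes, 2 were higher and 11 lower, with a median of -0.23, and none passed the thresholds. The lowest p was that of Anxa2, a plasminogen receptor subunit, at -0.47 (unadjusted p = 0.0834), and F8 (factor VIII) and Plat (tissue plasminogen activator), known as products of endothelial cells, had -0.23 and -0.59. Of 6 rows of the vitamin K cycle and factor secretion, 5 were higher and none passed, with a median of 0.05.

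Liver transcription factors, interleukin-6 signalling, acute phase plasma proteins and clock genes were read in the same way. Of 12 liver transcription factors, 6 were higher and 6 lower, with a median of -0.02, and none passed. Of 8 genes of interleukin-6 signalling, 4 were higher and 4 lower, with a median of -0.03, and none passed. Of 14 acute phase plasma proteins, 10 were higher, with a median of 0.08, and 1 passed. That was Lcn2, lipocalin 2, which was lower, at 8.62, 6.05 and 4.68 CPM against 3.47, 1.94 and 3.86 CPM, with a log2 fold change of -1.06 (unadjusted p = 0.00698). Of 10 clock genes, 4 passed as higher (Per3, Per2, Tef and Dbp) and 1 as lower (Arntl), with log2 fold changes of 1.08, 0.84, 0.67, 1.16 and -0.87. The time of day at which each liver was taken is not among the labels, and its part in the values above was not tested.

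Cell type markers moved with the groups to different degrees. Of 7 hepatocyte markers, 4 were higher and 3 lower, 1 passed as higher (Tat, at 0.68), and their summed level overlapped, from 163300 to 178700 CPM in t-PBS and from 172300 to 191000 CPM in t-DHEA livers. Hepatocyte markers were thus abundant in every liver. Mesothelium of the liver capsule had 3 of 3 markers passing as lower, with sums of 20.8 to 23.5 against 1.57 to 9.81 CPM, bile duct cells 4 of 4 lower and 2 passing, with 18.2 to 22.8 against 9.05 to 15.8 CPM, and stellate cells and fibroblasts 6 of 7 lower and 3 passing, with 525.9 to 697.2 against 426.6 to 515.1 CPM. Red blood cell markers were higher in 4 of 5, 3 of which passed, with 184.9 to 284.1 against 303.9 to 589.7 CPM. Of 8 Kupffer cell markers 6 were higher and none passed, with 544.2 to 680.2 against 585.4 to 798.6 CPM, and of 5 sinusoidal endothelial markers 3 were higher and 1 passed (Kdr), with 199.1 to 313 against 297.7 to 305.7 CPM. In adipocyte and platelet lists 1 gene each could be tested, Cidec at 0.18 and Itga2b at -0.23, and neither passed. The part of these markers in the differences of the complement and coagulation rows was not tested, and in whole liver a change in the number of cells of a type cannot be told apart from a change in RNA per cell.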

How the data were processed

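Liver RNA of 6 rats was sequenced as paired-end libraries. The authors aligned reads to Rnor_6.0 with HISAT2 2.0.4 and quantified genes with StringTie 1.3.0, per the labels and methods. The raw counts per gene were deposited without normalization, and the FPKM values the authors deposited beside them are scaled by gene length and library size. The annotation release is not given in the sources used here. Counts were tested with edgeR 4.0.16 in R 4.3.3 (TMM, filterByExpr with a minimum count of 10, quasi-likelihood test, two-sided, Benjamini-Hochberg over 12210 genes), although the methods name FPKM as the input of edgeR. Standard errors and 95% intervals came from the quasi-likelihood statistic. The tests were checked on simulated data, drawn for each gene independently with the spread that edgeR fitted. Shifts that many genes of a liver share were not part of that check. DESeq2 1.42.0, limma 3.58.1 on log2(FPKM + 0.1), other filters and each liver left out were alternatives, and a fit of the summed C2 and Cfb rows was added after seeing the data. Intervals and floors cover counting error and the spread between these livers only. Each library differed from each other beyond sampling noise, and rat numbers were not found to pair the livers.

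The members, the roles and the other lists were chosen with earlier results of these data known. All members are named. Of the other lists, genes past the thresholds and at most 3 others with the lowest p were eligible to be named. Promoters and older symbols came from RefSeq on GRCr8, and protein sequences were not used here.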

Additional observations from a re-analysis of the deposited data

How the results depend on the processing

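The rows called higher numbered 1 with all livers, 3 with DESeq2 (8.33%, against 174 or 1.43% of all genes), and 0 with library size alone, the likelihood-ratio test, limma on log2(FPKM + 0.1) or log2(FPKM + 1), the replicate block or a fold-change above 1.5, and 0 were lower above 1.5-fold. Leaving out 1 liver gave 0 to 3 rows higher, 0 to 1 lower, 8 to 21 separated (22.2% to 58.3%, against 18.8% to 22.6% of all genes in the same livers) and a median log2 fold change of 0.0438 to 0.187. Over all genes, 240 were higher and 364 lower. DESeq2 gave 240 lower, library size alone 157 higher, limma on log2(FPKM + 1) 147 higher, and a fold-change above 1.5 gave 101 and 174. The share of calls that were higher was 39.7%, against 25% with library size alone and 26.9% with limma on log2(FPKM + 0.1). Leaving out 1 liver gave 219 to 313 higher and 295 to 434 lower. The cause of these shifts was not tested.

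Among the alternatives run, signs turned only for rows whose log2 fold change was within 0.1 of 0. Cfd was -0.0114 and -0.00939 with limma at pseudocounts of 0.1 and 1, and Cfi was -0.0284 with library size alone and -0.0124 with limma at either. With 1 liver left out the values ran from -0.0133 to 0.281 for Cfb, -0.139 to 0.137 for Cfd, -0.144 to 0.156 for Cfi, -0.00564 to 0.133 for C8g, -0.00928 to 0.246 for F11, -0.0196 to 0.187 for Kng1, -0.101 to 0.0525 for Fga, -0.0506 to 0.0213 for Fgb, -0.109 to 0.0192 for Fgg and -0.0598 to 0.0698 for Pros1. Rats with the same number did not deviate together (correlations across genes from -0.0626 to -0.039), and no liver correlated best with its own number. With rat number as a replicate block, C4bpa had a log2 fold change of 0.296 and lost its call, Masp1 had -0.295 and kept it, and 212 genes were higher and 327 lower. Counts of rows called higher and called lower were the same without a filter and with at least 10 counts in every liver, and with the C2 and Cfb rows summed.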
